A study of Homo sapiens with 6 samples.

Results

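The 36 genes described here encode the machinery that builds autophagosomes and 4 of the receptors that bring cargo to them. They were chosen by name, with earlier results of these data known, and matched by symbol to the Ensembl identifiers of a count table with 78932 rows. All 36 were found, and 34 of them were among the 18040 genes with enough reads to be tested. ULK2 and MAP1LC3A were too low to test. Poly(A)-selected RNA came from HCC1937, an established triple-negative breast cancer line with a mutated BRCA1. Cells in 3 libraries had received 8 nM docetaxel, a taxane that keeps microtubules from coming apart, for 24 h. The other 3 libraries were controls, labelled con, and the labels do not say whether these cells received a vehicle. All 6 libraries came from this 1 line, so they hold no information on other lines, and the labels call the replicates biological without saying how the cultures were kept apart. The p-values therefore measure the spread between these libraries.

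Autophagy encloses part of the cytoplasm in a growing membrane, the phagophore, which closes into an autophagosome and fuses with a lysosome. The ULK1 kinase complex starts the process, a class III phosphoinositide 3-kinase complex marks the membrane with a lipid, ATG9A and the ATG2 proteins supply more lipid, and a conjugation system related to ubiquitination attaches ATG8 proteins to the membrane. Receptors bind cargo on one side and ATG8 proteins on the other. Autophagosomes travel along microtubules toward lysosomes. Much of this control acts on proteins, and mRNA levels do not measure how much material is degraded.

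Library totals were 38622062, 39069030 and 39181848 counts in docetaxel replicates 1 to 3, against 39033097, 41675186 and 41034469 in control replicates 1 to 3 (exact two-sided permutation p = 0.3, where 0.1 is the smallest that 3 against 3 allows). At these depths a count of 0 allows up to 3 counts, or 0.072 to 0.0777 CPM (counts scaled to 1e6 per library), a limit that covers counting error only. Of 8 epithelial markers, KRT8 averaged 2100 CPM in docetaxel and 1830 CPM in control libraries, KRT18 691 and 641 CPM, and KRT7 531 and 421 CPM. The adhesion markers EPCAM, at 0.0767 CPM with docetaxel and 0.0565 CPM in controls, and CDH1, at 0.726 and 0.652 CPM, were near 0. So were the keratins KRT19 (0.145 CPM with docetaxel and 0.0658 CPM in controls), KRT5 (0.043 and 0.0342 CPM) and KRT14 (0.223 and 0.032 CPM). The 8 epithelial markers summed to 3290 to 3340 CPM with docetaxel and 2830 to 2930 CPM in controls, and 7 mesenchymal markers to 486 to 504 CPM with docetaxel and 512 to 524 CPM in controls. The 4 leukocyte markers summed to 2.72 to 4.13 CPM with docetaxel and 1.73 to 2.58 CPM in controls, of which CD14 had 2.48 CPM with docetaxel and 1.5 CPM in controls (log2 fold change 0.77, edgeR adjusted p = 0.0377) and PTPRC 0 CPM with docetaxel and 0.00854 CPM in controls. The 3 endothelial markers summed to 2.77 to 3.5 CPM with docetaxel and 2.05 to 2.95 CPM in controls. No marker was at 0 in all 6 libraries, and the part of these shifts in the results was not tested.

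Base composition runs through the results below, so stretches of 60 coding bases are shown from the ULK1 and ATG2A mRNAs, which rose, and from the VMP1, ATG4C and TAX1BP1 mRNAs, which fell. Each is the first stretch of the longest coding sequence (GENCODE release 29, GRCh38) whose share of G and C is closest to that of the whole transcript carrying that coding sequence. The capitals mark G and C. ATG2A lies at chr11:64894546-64917248 on the minus strand, ULK1 at chr12:131894651-131923167, VMP1 at chr17:59707192-59842255, ATG4C at chr1:62784135-62865513 and TAX1BP1 at chr7:27739331-27844564, the last 4 on the plus strand. The stretches start at base 91 of the coding sequence in ATG2A, 34 in ULK1, 28 in VMP1, 10 in ATG4C and 4 in TAX1BP1.
ATG2A: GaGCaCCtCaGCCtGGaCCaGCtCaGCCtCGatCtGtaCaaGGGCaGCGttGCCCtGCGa
ULK1: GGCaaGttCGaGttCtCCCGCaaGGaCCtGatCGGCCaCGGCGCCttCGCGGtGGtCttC
VMP1: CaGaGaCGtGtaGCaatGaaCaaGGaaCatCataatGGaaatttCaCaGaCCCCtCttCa
ATG4C: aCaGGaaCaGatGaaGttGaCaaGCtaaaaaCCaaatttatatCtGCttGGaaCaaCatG
TAX1BP1: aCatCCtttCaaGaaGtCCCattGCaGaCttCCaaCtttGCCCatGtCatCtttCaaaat
By this choice of stretch, G and C make up 63.3% of the ATG2A stretch and 65.0% of the ULK1 stretch, but 41.7% of the VMP1, 35.0% of the ATG4C and 40.0% of the TAX1BP1 stretch. The longest TAX1BP1 transcript has 48.0%. Not shown are ATG13, ATG101 and AMBRA1, which also rose and have 52.6%, 59.8% and 55.5% in their longest transcripts.

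Most autophagy genes, like most of all tested genes, did not pass the test of docetaxel against control. Not passing, with 3 libraries per group, does not show that a gene was unchanged. Of the 34 tested genes, ULK1, ATG13, ATG101, AMBRA1 and ATG2A rose and VMP1, ATG4C and TAX1BP1 fell, where ULK1 turned to a log2 fold change of -0.01 once a trend on GC content was taken out. Taking out that trend in 2 ways, described below, ended 7 of the 8 calls in one and 6 in the other, and 0 members were called in both. These 8 calls (23.5%) stand beside 17.0% of all 18040 tested genes called in either direction at an adjusted p under 0.05 (edgeR quasi-likelihood test, Benjamini-Hochberg over all tested genes), with 9.14% of all genes called higher and 7.82% called lower. DESeq2 and limma-voom called the same 8 members. The changes were small. The log2 fold changes, docetaxel over control, ran from -0.37 to 0.40 with a median of 0.03, against a median of 0.01 over all tested genes, and their median size was 0.12, against 0.17 over all tested genes. Every docetaxel value lay above every control value for 9 members and below for 4, where 17.0% of all tested genes were separated upward and 15.0% downward. Together the 36 genes took 0.1775% of all counts with docetaxel and 0.1815% in controls (exact two-sided permutation p = 0.2, n = 3 each). In RNA from bulk cultures, fewer cells that express a gene and less of its RNA per cell cannot be told apart.

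**Figure D1:**
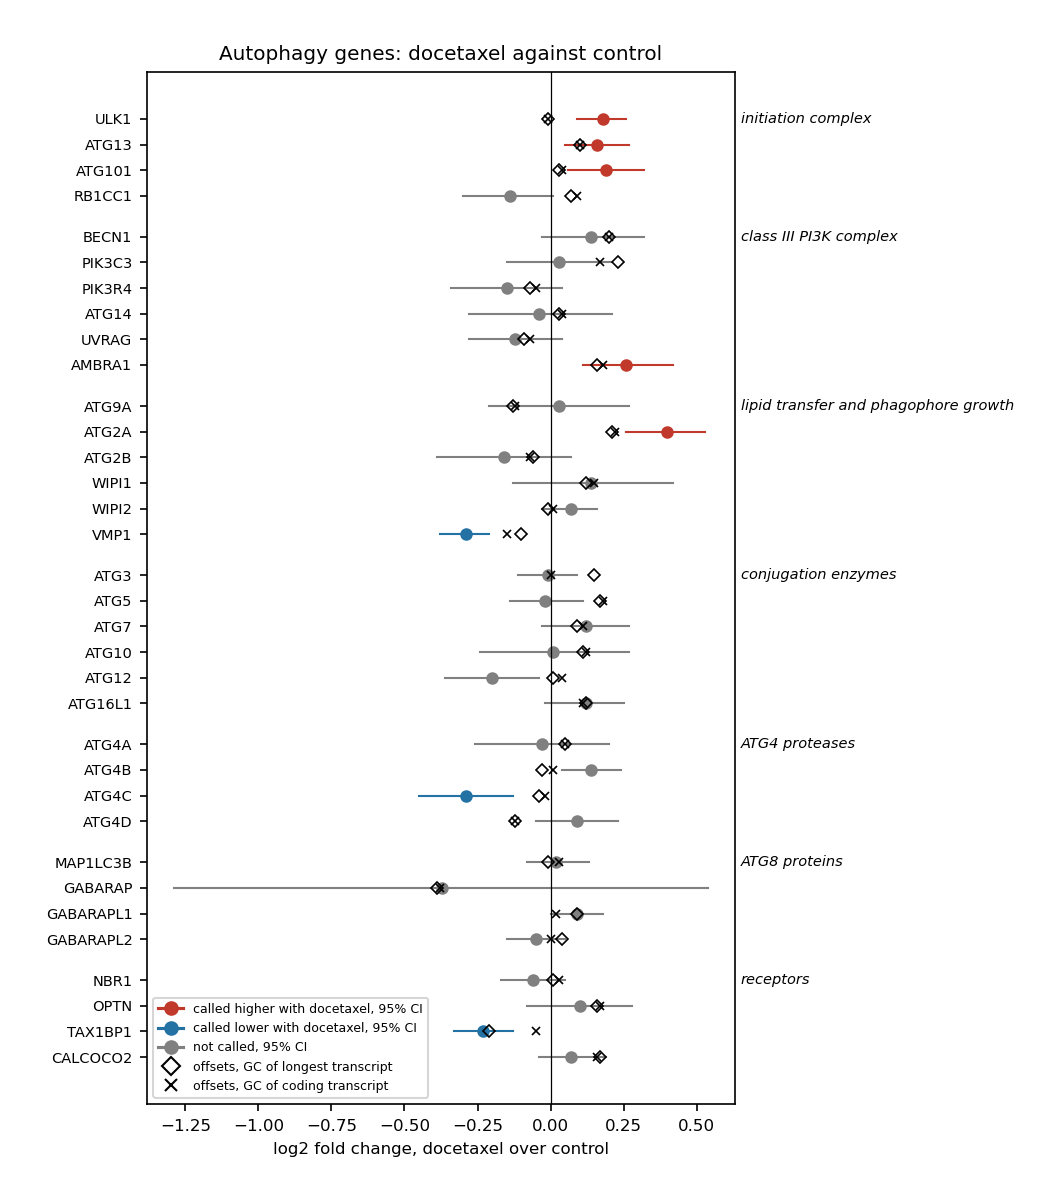
Log2 fold change, docetaxel over control, of the 34 tested autophagy genes by role. Filled points and bars are the edgeR estimate and its 95% confidence interval (red called higher, blue called lower, grey not called), open diamonds and crosses are the estimates after removing a trend on GC content by the longest or by the coding transcript. Of the 5 red points ULK1 moves to -0.01 with either correction, and the TAX1BP1 cross lies at -0.05.

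In the initiation complex, 3 of 4 tested subunits rose (75%, beside 9.14% of all tested genes called higher). Of these, ULK1 went to -0.01 with a GC trend taken out. The longest transcripts of ULK1, ATG101 and ATG13 have 64.2%, 59.8% and 52.6% G and C. Among tested genes, 31.6% were called higher at 58.3% to 83.9% G and C, and 13.6% at 51.9% to 58.3%. ULK1, the kinase that starts autophagosome formation, had 160, 163 and 167 CPM in docetaxel libraries, against 143, 143 and 147 CPM in control libraries. The groups did not overlap, and the log2 fold change was 0.18 ± 0.04 (SE, adjusted p = 0.00395), or 1.13-fold. ATG13, the regulatory subunit that links ULK1 to the scaffold, had 65.0, 66.0 and 65.9 CPM with docetaxel, against 56.3, 59.7 and 60.1 CPM in controls. ATG101, the partner that stabilises ATG13, had 46.7, 47.0 and 42.9 CPM with docetaxel, against 40.6, 40.0 and 39.4 CPM in controls. Both were separated between the groups, at 0.16 ± 0.05 (adjusted p = 0.0385) for ATG13 and 0.19 ± 0.06 (adjusted p = 0.0381) for ATG101. RB1CC1, which encodes the large scaffold FIP200, did not pass the test, at 33.5 ± 2.5 CPM with docetaxel and 37.0 ± 3.6 CPM in controls (SD, n = 3 each, log2 fold change -0.14, adjusted p = 0.214). ULK2, the second kinase of the family, had 4, 5 and 6 counts with docetaxel and 12, 1 and 2 counts in controls.

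The calls of ATG13 and ATG101 were close to the threshold. ULK1 stayed called without any 1 library (adjusted p of 0.00868 to 0.0441), but ATG13 was lost whichever library was left out (0.0587 to 0.176) and ATG101 stayed called only without docetaxel replicate 3 (0.0391 to 0.178). None of the 3 was called by edgeR with the GC trend taken out in either way.

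In the class III phosphoinositide 3-kinase complex, AMBRA1 was the 1 of 6 genes that passed (16.7%, beside 17.0% of all tested genes). AMBRA1, a scaffold that binds BECN1, had 43.2, 48.4 and 38.3 CPM with docetaxel, against 34.8, 38.9 and 34.5 CPM in controls. The lowest docetaxel library lay below the highest control library, and the log2 fold change was 0.26 ± 0.08 (adjusted p = 0.0138). That call was lost without docetaxel replicate 2, control replicate 1 or control replicate 3 (adjusted p of 0.00844 to 0.192 over the 6 ways of leaving out a library), and with the GC trend taken out (0.28 and 0.199). The kinase itself, PIK3C3, stood at 22.6 ± 2.3 CPM with docetaxel and 22.1 ± 1.5 CPM in controls (SD, n = 3 each), and the 95% interval of its log2 fold change, 0.03, was -0.15 to 0.21. BECN1, its activating subunit, had 20.2, 21.0 and 22.5 CPM with docetaxel, against 19.7, 18.3 and 19.6 CPM in controls, a separation that did not pass the test (log2 fold change 0.14, adjusted p = 0.284). The regulatory kinase-like subunit PIK3R4 gave -0.15 (adjusted p = 0.312). ATG14 and UVRAG, the alternative subunits that direct the complex to early or late steps, gave -0.04 (adjusted p = 0.895) and -0.12 (adjusted p = 0.337).

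Of the 6 genes for lipid transfer and phagophore growth, ATG2A rose and VMP1 fell (33.3% called, beside 17.0% of all tested genes). ATG2A, a bridge-like protein that passes lipid to the phagophore, had 44.2, 41.2 and 46.0 CPM in docetaxel libraries, against 32.7, 32.6 and 34.3 CPM in control libraries. The groups lay well apart, at a log2 fold change of 0.40 ± 0.07 (SE, adjusted p = 0.000113), or 1.32-fold. Its paralog ATG2B, with 14.9, 11.0 and 11.5 CPM with docetaxel and 14.7, 12.4 and 14.8 CPM in controls, did not pass, at -0.16 ± 0.11 (adjusted p = 0.397). The 95% intervals of the paralogs, 0.26 to 0.53 for ATG2A and -0.39 to 0.07 for ATG2B, did not overlap, and the difference between them was not tested. VMP1, an endoplasmic reticulum lipid scramblase needed for the phagophore to form, had 169, 167 and 165 CPM with docetaxel, against 205, 206 and 202 CPM in controls. Within each group these values spanned a few CPM, and VMP1 fell by 0.29 on the log2 scale (SE 0.04, adjusted p = 1.3e-05). ATG9A, the scramblase on the vesicles that seed the phagophore, gave 0.03 (adjusted p = 0.9). WIPI1 and WIPI2, which bind the lipid mark, gave 0.14 (adjusted p = 0.555) and 0.07 (adjusted p = 0.375). Without any 1 library ATG2A stayed at an adjusted p of 0.00474 or less and VMP1 at 0.0016 or less, while with the GC trend taken out by the longest transcript neither was called.

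None of the 6 conjugation genes passed the edgeR test, with 1 of them at an unadjusted p under 0.05, as were 5136 of all 18040 tested genes. That gene was ATG12, the ubiquitin-like protein joined to ATG5, with 25.7, 22.3 and 24.2 CPM with docetaxel, against 27.6, 28.0 and 27.2 CPM in controls. Its docetaxel values all lay below its control values (log2 fold change -0.20 ± 0.08, adjusted p = 0.0785). It passed without docetaxel replicate 1, at 0.0243, and with library-size scaling. ATG5 stood at 44.5 ± 1.3 CPM with docetaxel and 44.9 ± 0.77 CPM in controls (SD, n = 3 each), and the interval of its log2 fold change ran from -0.14 to 0.11. For ATG3, the enzyme that hands ATG8 proteins to the lipid, the interval was -0.11 to 0.09. ATG7, the activating enzyme of both branches, ATG16L1, which places the conjugate on the membrane, and ATG10, which joins ATG12 to ATG5, gave 0.12, 0.12 and 0.01 (adjusted p of 0.316, 0.25 and 0.961).

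The 4 ATG4 proteases cut ATG8 proteins to prepare them for attachment and free them again. ATG4C had 27.9, 23.0 and 25.7 CPM with docetaxel, against 31.7, 32.8 and 29.2 CPM in controls. All docetaxel values lay below the control values, and ATG4C fell by 0.29 on the log2 scale (SE 0.08, adjusted p = 0.00936), against -0.04 (0.863) and -0.02 (0.924) with the GC trend taken out in either way. The call was lost without docetaxel replicate 2 or control replicate 2, where the adjusted p reached 0.0778. ATG4B, the most active of the family on most ATG8 proteins, had 102, 102 and 98.0 CPM with docetaxel, against 90.9, 86.2 and 97.0 CPM in controls. It lay just outside the threshold, at 0.14 ± 0.05 (adjusted p = 0.0544), and it passed without control replicate 3 (0.0309), with upper-quartile scaling and with a filter of 1 CPM in 3 libraries. ATG4A gave -0.03 (adjusted p = 0.902) and ATG4D 0.09 (adjusted p = 0.419).

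GABARAPL1 and GABARAPL2 had the highest levels per kb of all members. No tested ATG8 gene was called by edgeR or lay at an unadjusted p under 0.05, where 5136 of all 18040 tested genes did. GABARAPL1 had 141, 148 and 146 CPM with docetaxel, against 139, 130 and 139 CPM in controls, a separation of the groups that did not pass (log2 fold change 0.09 ± 0.04, adjusted p = 0.182). MAP1LC3B, whose lipid-bound protein is the usual marker of autophagosomes, had 84.3, 79.3 and 84.4 CPM with docetaxel, against 86.1, 79.3 and 78.4 CPM in controls. Its groups overlapped, and the interval of its log2 fold change was -0.08 to 0.13. GABARAPL2 stood at 91.2 ± 3.2 CPM with docetaxel and 94.7 ± 2.1 CPM in controls (SD, n = 3 each, adjusted p = 0.525). GABARAP was counted only 32, 22 and 13 times with docetaxel and 35, 38 and 20 times in controls, so its interval, -1.29 to 0.54, was the widest of the members. In the annotation 30.494% of the GABARAP exon bases are shared with AC120057.2 on the same strand, a gene with 0 counts, and the handling of reads that overlap both is not given in the sources used here. MAP1LC3A had 10, 8 and 2 counts with docetaxel and 0, 0 and 3 counts in controls.

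Of the 4 receptors among the members TAX1BP1 fell and the other 3 did not pass, where 7.82% of all tested genes were called lower. TAX1BP1, a ubiquitin-binding receptor for aggregated proteins and damaged organelles, had 101, 94.1 and 96.4 CPM with docetaxel, against 108, 120 and 114 CPM in controls. The groups were separate, and TAX1BP1 fell by 0.23 on the log2 scale (SE 0.05, adjusted p = 0.00126), with an adjusted p of at most 0.0171 without any 1 library. With the GC trend taken out it was at -0.21 (adjusted p = 0.00379) by the longest transcript and -0.05 (0.599) by the coding transcript. Its close relative CALCOCO2, or NDP52, a receptor for bacteria and mitochondria, gave 0.07 (95% interval -0.04 to 0.19). NBR1, a receptor for aggregates, stood at 63.5 ± 0.94 CPM with docetaxel and 66.2 ± 2.1 CPM in controls (SD, n = 3 each, adjusted p = 0.52). OPTN, which acts with TBK1 on mitochondria, stood at 19.8 ± 1.4 CPM with docetaxel and 18.4 ± 0.55 CPM in controls (adjusted p = 0.527).

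**Figure D2:**
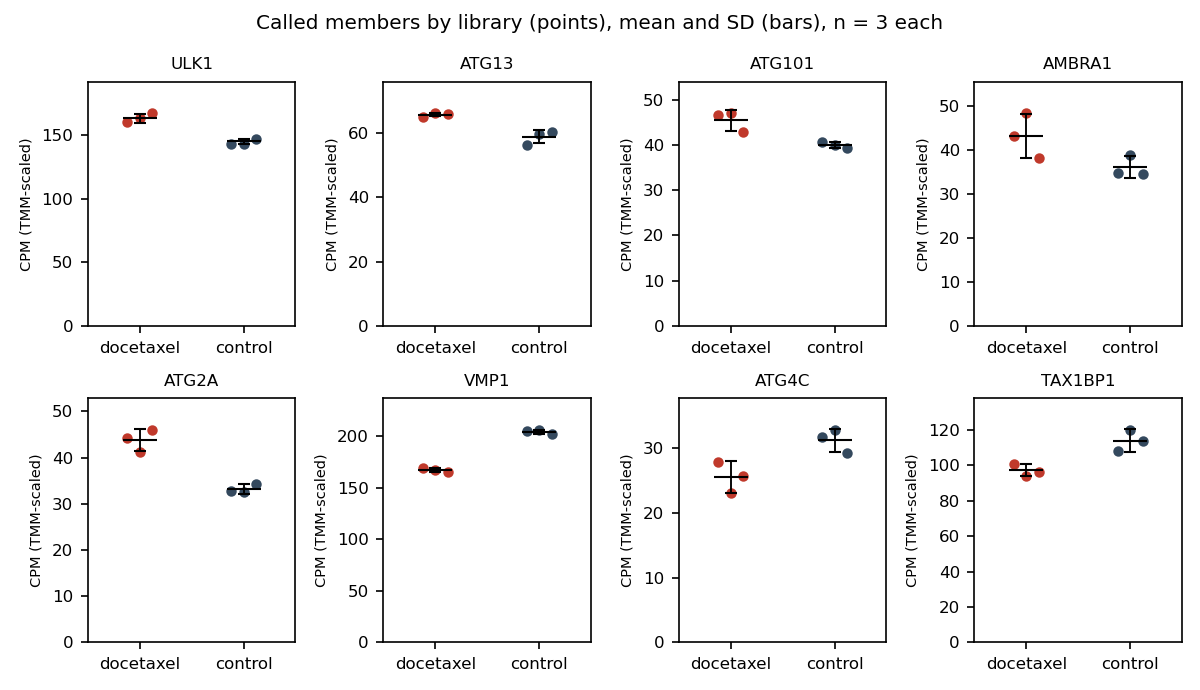
TMM-scaled CPM of the 8 called autophagy genes in each library, docetaxel left and control right. Points are libraries, horizontal bars means and vertical bars SD (n = 3 each), and each axis starts at 0. AMBRA1 is the 1 gene of the 8 whose groups overlap.

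Levels of different genes are set side by side here per kb of the deposited gene length, which need not be that of the expressed transcript. On that scale GABARAPL1 was highest, at 35.7 CPM per kb with docetaxel and 33.6 in controls, followed by GABARAPL2 at 30.3 with docetaxel and 31.5 in controls. The kinase ULK1 had 21.4 with docetaxel and 19.0 in controls, and VMP1 16.7 with docetaxel and 20.4 in controls, so ULK1 ranked above VMP1 with docetaxel and below it in controls. The protease ATG4D had 16.9 with docetaxel and 15.9 in controls, and MAP1LC3B 16.4 with docetaxel and 16.1 in controls. In the class III complex PIK3R4 had 5.19 CPM per kb with docetaxel and 5.75 in controls, whereas PIK3C3 had 1.49 with docetaxel and 1.46 in controls. That gap went mostly with the deposited lengths, 5377 bases for PIK3R4 and 15154 for PIK3C3. Before division by length PIK3R4 had 27.9 CPM with docetaxel and 30.9 in controls, and PIK3C3 22.6 with docetaxel and 22.1 in controls. ATG2A had 5.59 with docetaxel and 4.24 in controls, and ATG2B 0.875 with docetaxel and 0.979 in controls. GABARAP, at 0.298 with docetaxel and 0.387 in controls, lay far under its 2 relatives. Its counts were few and its exon bases partly shared, as given above, and whether the counting of overlapping reads lowered its level was not tested.

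**Figure D3:**
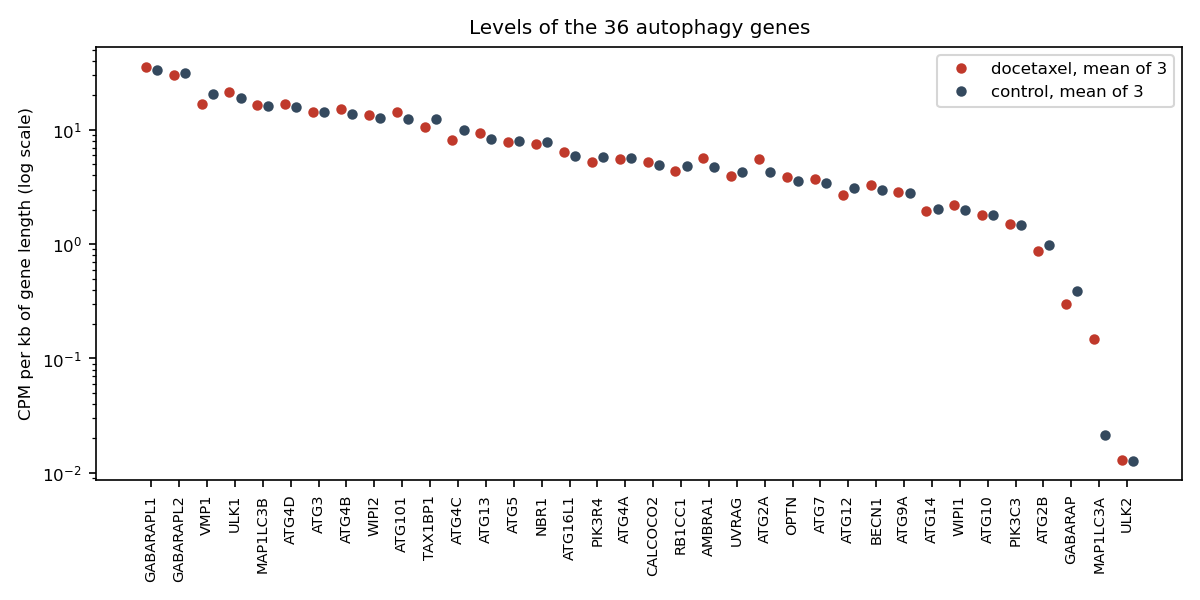
Mean level of the 36 autophagy genes in docetaxel and control libraries (n = 3 each), in CPM per kb of gene length on a log axis, ordered by the control level. GABARAPL1 and GABARAPL2 lead at over 30 CPM per kb, and ATG2B, GABARAP, MAP1LC3A and ULK2 lie below 1 CPM per kb in both groups.

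The direction of the member changes went with base composition. The 5 genes called higher had transcripts with 52.6% to 64.2% G and C (median 59.8%), the 3 called lower had 34.8% to 48.0% (median 38.6%), and the 26 others a median of 44.8%. The same held across all tested genes, where those called higher had a median of 60.2%, those called lower 39.5% and the rest 48.7%. Across the 34 members Spearman's rho between log2 fold change and GC content was 0.672, and across all 16421 tested genes with a GC value it was 0.536. These are relations across genes measured in the same 6 libraries, and genes are not independent replicates. Among all genes, in the fifth richest in G and C, 31.6% were called higher and 0.122% lower, and of the 6 members there 3 were higher and 0 lower. In the fifth poorest in G and C, 0.183% of all genes were higher and 28.8% lower, and of the 7 members there 0 were higher and 2 lower.

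Relative to the mean of the 6 libraries, counts rose with GC content in all 3 docetaxel libraries, by 0.0447, 0.0998 and 0.0845 on the log2 scale per 10 points of GC content. In the controls the slopes were -0.05, -0.126 and -0.0532 (p = 0.1 by an exact two-sided permutation test, which can give none smaller here). Because the slope separates the libraries exactly as the treatment does, a difference in library making and a response of the cells cannot be told apart. Control replicate 2 had the steepest slope of the 6.

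**Figure D4:**
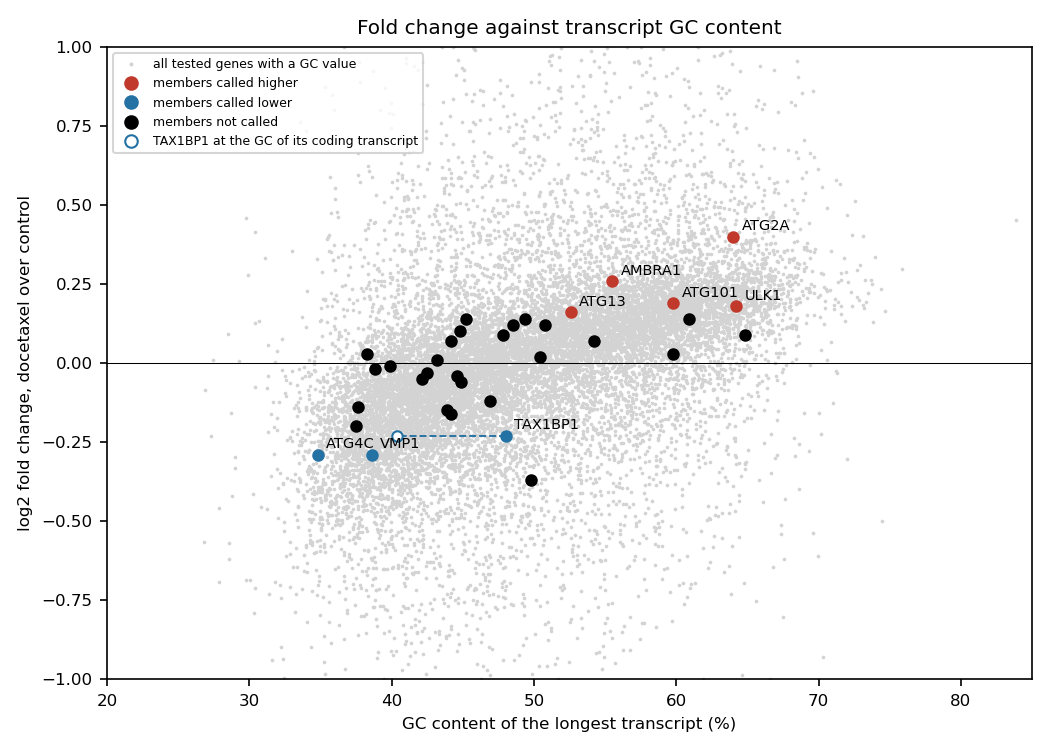
Log2 fold change, docetaxel over control, against the GC content of the longest transcript, for tested genes (grey) and the 34 autophagy genes (red called higher, blue called lower, black not called). The open circle puts TAX1BP1 at the 40.4% of its coding transcript, and 283 of the 16421 genes lie outside the plotted range. ATG2A, ULK1 and ATG101 lie at the GC-rich end and ATG4C and VMP1 at the GC-poor end of a band that slopes upward.

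With offsets for each library from a loess curve on GC content and length, edgeR called 669 of the 18040 genes (3.71%, with 2.05% higher and 1.66% lower), and of the members 0 were higher and 1, TAX1BP1, was lower, with 10 members and 2935 of all 18040 genes at an unadjusted p under 0.05. ULK1 went to a log2 fold change of -0.01 (adjusted p = 0.914) and ATG4C to -0.04 (adjusted p = 0.863). ATG13 was at 0.10 (adjusted p = 0.366), ATG101 at 0.03 (adjusted p = 0.887) and AMBRA1 at 0.16 (adjusted p = 0.28). ATG2A was at 0.21 (adjusted p = 0.0526) and VMP1 at -0.10 (adjusted p = 0.154). TAX1BP1 was at -0.21 (adjusted p = 0.00379), but its longest transcript, 48.0% G and C, is not the one with the longest coding sequence, which has 40.4%. With the GC content of the transcript with the longest coding sequence for every gene, a choice made after this was seen, TAX1BP1 went to -0.05 (adjusted p = 0.599). That fit called 676 genes (3.75%, with 1.87% in each direction), and 1 member was higher and 1 lower, with 9 members and 2847 of all 18040 genes at an unadjusted p under 0.05. These were ATG2A (log2 fold change 0.22, adjusted p = 0.0421) and VMP1 (-0.15, adjusted p = 0.0128). Both calls hung on single libraries: ATG2A passed without docetaxel replicate 2 but not without any of the other 5, and VMP1 was lost without docetaxel replicate 3, control replicate 1 or control replicate 3. TAX1BP1, under the first definition, was lost without control replicate 2 (0.0936). So 0 of the 34 members were called by edgeR with both definitions.

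The offsets moved other members up as well. ATG5 went to 0.17 with the longest transcript and 0.18 with the coding transcript (adjusted p of 0.12 and 0.083), and PIK3C3 to 0.23 and 0.17 (0.113 and 0.306). Between these definitions ATG3 differed as TAX1BP1 did, at 0.15 (adjusted p = 0.0605) against 0.00 (0.996), and so did GABARAPL1, at 0.09 (0.223) against 0.02 (0.867). These 3 were the members whose transcripts differed by over 5 points of GC content between the definitions, as 1000 of the 16421 genes with a value did.

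A wider list of 68 genes around the members, all tested and chosen with earlier results of these data known, held 26 called genes (38.2%), 15 higher and 11 lower, beside 17.0% of all tested genes. With either kind of offsets 2 were higher and 3 lower, beside 3.71% and 3.75% of all tested genes. Its largest share of calls was among 17 further receptors (64.7%), where 5 rose and 6 fell. SQSTM1, or p62, the receptor for ubiquitinated cargo, had 276, 262 and 273 CPM with docetaxel, against 209, 201 and 215 CPM in controls. Its groups were far apart, at a log2 fold change of 0.37 ± 0.04 (SE, adjusted p = 2.58e-07). With offsets it was at 0.24 by the longest transcript and 0.26 by the coding transcript, and it was called by edgeR without any 1 library in all 3 settings. BNIP3, a mitophagy receptor that hypoxia induces, had 73.0, 73.9 and 72.6 CPM with docetaxel, against 88.2, 90.8 and 83.5 CPM in controls. It fell by 0.26 on the log2 scale (SE 0.05, adjusted p = 0.000595), and was at -0.31 and -0.19 with the 2 kinds of offsets (adjusted p = 0.0103 with the coding transcript, where the call was lost without 3 of the 6 libraries).

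SQSTM1 and TAX1BP1, both ubiquitin-binding receptors, therefore stood on opposite sides of 0, with intervals that did not overlap in the fit without offsets, although TAX1BP1 was near 0 by the coding transcript, and the difference between them was not tested. TEX264, a receptor for the endoplasmic reticulum, had 83.0 ± 3.7 CPM with docetaxel and 67.7 ± 0.92 CPM in controls (SD, n = 3 each, log2 fold change 0.29, adjusted p = 0.000211). The endoplasmic reticulum receptors CCPG1 (-0.42), SEC62 (-0.34) and RTN3 (-0.13) fell, and RETREG1 (-0.05), RETREG2 (0.10) and RETREG3 (-0.01) did not pass. Of the mitochondrial receptors FKBP8 (0.26) and PHB2 (0.17) rose, BNIP3L (-0.24) fell, and FUNDC1 (-0.14) and BCL2L13 (0.08) did not pass. TOLLIP (0.23), a ubiquitin-binding adaptor, rose, and NCOA4 (-0.15), the ferritin receptor, fell. With offsets by the coding transcript edgeR called none of the 9 genes from TEX264 to NCOA4 that rose or fell. With the longest transcript TEX264 alone of them passed (log2 fold change 0.20, adjusted p = 0.0166).

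**Figure D5:**
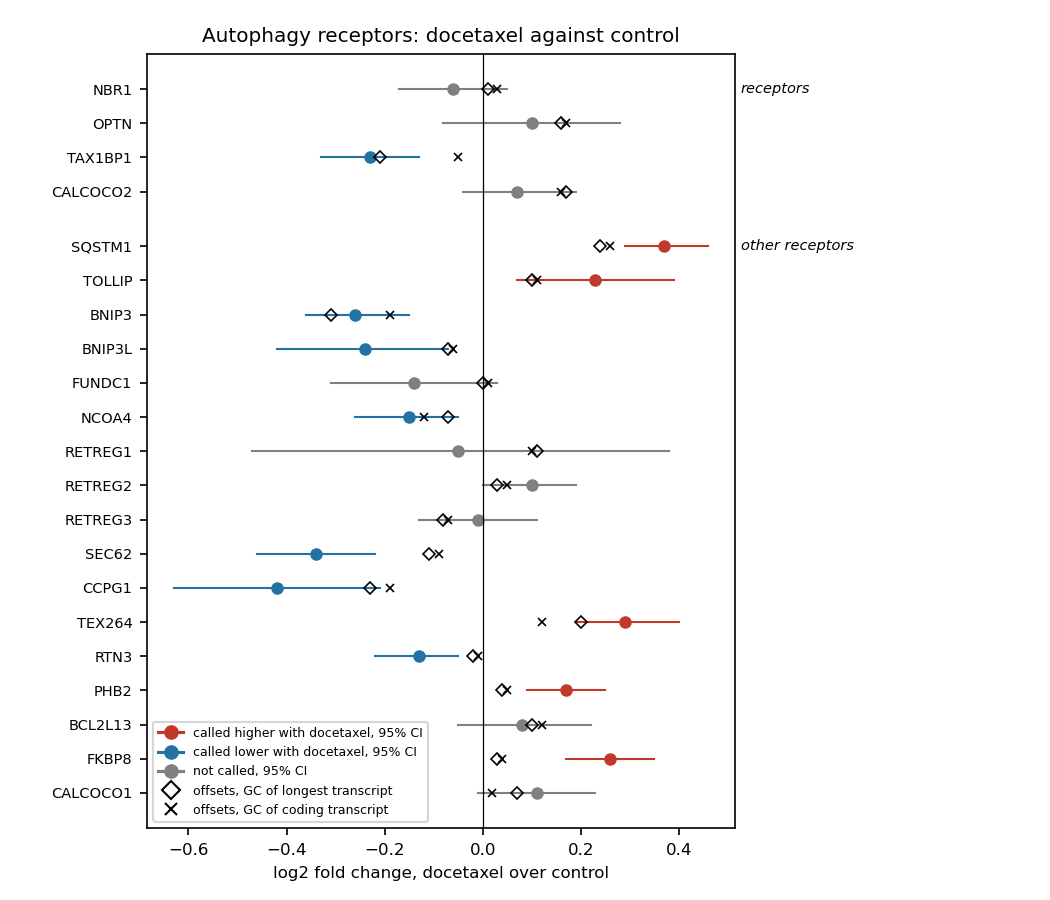
Log2 fold change, docetaxel over control, of the 4 receptors among the members and 17 further receptors. Filled points and bars are the edgeR estimate and its 95% confidence interval (red called higher, blue called lower, grey not called), diamonds and crosses the estimates with offsets by the longest or the coding transcript. SQSTM1 lies right of 0 and BNIP3 left of 0 in all 3.

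Of 14 other core genes, TECPR1 (0.42) and ULK3 (0.16) rose and TMEM41B fell (21.4% called, beside 17.0% of all tested genes). ULK3 was at 0.00 with offsets by the longest transcript. TECPR1 was at 0.27 with either kind (adjusted p = 0.0556 by the longest and 0.0491 by the coding transcript). TMEM41B, a scramblase that works with VMP1, had 38.6, 34.7 and 33.0 CPM with docetaxel, against 44.1, 50.1 and 43.4 CPM in controls. It fell by 0.37 on the log2 scale (SE 0.07, adjusted p = 0.000424), and stayed at -0.22 and -0.21 with the 2 kinds of offsets, called in 1 of 6 fits without a library in each. Of 13 fusion genes YKT6 (0.17) and VPS18 (0.27) rose (15.4% called, beside 17.0% of all tested genes), and neither passed with offsets. Of 17 upstream genes RPTOR (0.16), MLST8 (0.24) and AKT1S1 (0.24), which belong to the mTOR complex that restrains ULK1, rose, as did TSC2 (0.14), which acts upstream of that complex. The AMPK subunits PRKAA2 (-0.38) and PRKAG2 (-0.34), and TBK1 (-0.23), which phosphorylates OPTN, fell. The other AMPK subunits listed did not pass the edgeR test. These were PRKAA1 (-0.42, adjusted p = 0.151), PRKAB1 (0.17, adjusted p = 0.213), PRKAB2 (-0.23, adjusted p = 0.0532) and PRKAG1 (-0.34, adjusted p = 0.801). The 7 genes that rose or fell were 41.2% of the upstream genes, beside 17.0% of all tested genes called. None of the 7 was called by edgeR with either kind of offsets.

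Of 7 transcriptional regulators, TFEB and TFE3, which drive lysosomal and autophagy genes, rose (TFE3 turned to -0.01 with offsets by the longest transcript), and FOXO3, which does so in starved mouse muscle, fell. These 3 were 42.9% of the regulators, beside 17.0% of all tested genes called. TFEB had 27.5 CPM on average with docetaxel and 22.0 CPM in controls (log2 fold change 0.32 ± 0.08, adjusted p = 0.00426) and 0.19 with offsets (adjusted p = 0.166). TFE3 gave 0.15 (adjusted p = 0.0403). FOXO3 had 28.1, 26.8 and 25.0 CPM with docetaxel, against 32.3, 33.6 and 33.2 CPM in controls. It fell by 0.31 on the log2 scale (SE 0.07, adjusted p = 0.00306) and was at -0.31 and -0.30 with the 2 kinds of offsets (adjusted p of 0.00616 and 0.00874), where 4 of 6 fits without a library called it. SQSTM1, BNIP3, TMEM41B and FOXO3 were the 4 of the 68 genes called with both definitions.

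In the fit without offsets, leaving out control replicate 2 ended 12 of the 26 calls among the wider list, those of ULK3, TOLLIP, BNIP3L, NCOA4, RTN3, YKT6, RPTOR, TSC2, PRKAA2, PRKAG2, TBK1 and TFE3. Docetaxel replicate 3 ended 11 of these, all but PRKAA2. Docetaxel replicates 1 and 2 ended 7 each and control replicates 1 and 3 ended 6 each, all among the same 12 genes. The other 14 genes stayed called without any 1 library.

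Letters that transcription factors bind were looked for in RefSeq promoter windows (GRCh38.p14), which were given for 32 of the 36 members. Both strands of the 250 bases before a single start per gene, the first listed, were read. For some members, among them ATG5 and AMBRA1, that start lies inside the gene as GENCODE gives it, and other starts were not read. The E-box CACGTG was in 2 members and in 6.49% of 27305 promoters, and the longer CLEAR element of TFEB, the same letters between GT and AC, was in 0 members and in 0.33% of promoters. The AP-1 site TGAGTCA was in 0 members (4.16% of promoters), the cyclic AMP response element TGACGTCA in 1 (1.77%) and the FOXO site GTAAACA in 1, CALCOCO2 (2.98%). The E-boxes and the cyclic AMP response element lie close to the start used, in genes that were not called. They are shown with the motif in capitals, at chr12:10212836-10212865 for GABARAPL1 on the plus strand, and at chr3:112561964-112561991 for ATG3 and chr14:55411835-55411862 for ATG14 on the minus strand.
GABARAPL1: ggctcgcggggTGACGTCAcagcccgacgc
ATG3: ctttctcacgtCACGTGccgggagagtc
ATG14: aaacaaaatccCACGTGactggctctcc
A match is a description of the letters in the window and not evidence of binding.

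Some members share exon bases with a neighbour, and whether the counting used strand is not given in the sources used here, so their counts are less certain. The largest shares on the opposite strand were 25.199% of GABARAP with AC120057.3, 24.339% of WIPI1 with ARSG, 19.193% of ATG101 with AC025259.1, 18.069% of ATG7 with VGLL4 and 14.969% of ATG4D with KRI1. On the same strand 38.802% of ATG9A was shared with AC068946.2. Summed over the 6 libraries AC025259.1 had 172 counts and AC068946.2 had 5, but KRI1 had 24743. Some smaller opposite-strand shares were with highly counted genes, among them 4.677% of BECN1 with PSME3 (61323 counts) and 6.864% of ATG10 with RPS23 (35126 counts). Of the other called genes, ATG13 shared 4.699% with HARBI1, VMP1 2.342% with PTRH2 and TAX1BP1 4.528% with JAZF1.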

How the data were processed

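Gene counts were made with featureCounts 2.0.1 on GRCh38, and quality reports with MultiQC 1.11, per the submitters' processing notes. Libraries were poly(A)-enriched and sequenced as paired ends on a NovaSeq, per the labels. The authors deposited raw counts and a gene length for each Ensembl identifier. No source used here names the aligner, annotation, strand setting or read-overlap rule. Library totals were 38622062 to 41675186 counts.

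Symbols, coordinates and GC content came from GENCODE release 29. Genes kept by filterByExpr were scaled by TMM and tested with edgeR 4.0.16 in R 4.3.3 (robust glmQLFit, glmQLFTest, two-sided, Benjamini-Hochberg over 18040 genes, threshold 0.05), for 1 comparison. CPM are TMM-scaled. Offsets came from a loess fit (span 0.5) of each library on GC content and log2 length. Alternatives were other scalings (library size, RLE, upper quartile), DESeq2 1.42.0, voom in limma 3.58.1, 2 other filters, a replicate block, offsets and leaving out each library. Scripts were tested on simulated counts. Replicates of a group differed by more than sampling noise (dispersion index 4.92 to 12.7). The members and the lists around them were chosen with earlier results of these data known, and all 36 members and each called gene of the lists are named.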

Additional observations from a re-analysis of the deposited data

How the results depend on the processing

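Members called higher numbered 5 and lower 3. Higher calls fell to 3 with RLE scaling, library-size scaling, no filter or the replicate block, with ATG13 and ATG101 lost each time. ATG4B was gained with upper-quartile scaling and the 1 CPM filter, and ATG12 with library-size scaling. DESeq2 and limma-voom called the same 8 genes. Offsets for GC and length left 0 higher and 1 lower, also with the block added, and 1 and 1 with the coding transcript, a choice made after seeing the data. Without 1 library each direction had 2 to 4, and 0 to 1 with either kind of offsets. Among fits without offsets the fewest calls were without docetaxel replicate 2, which ended the calls of AMBRA1, ATG4C, ATG13 and ATG101. Cause was not tested.

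Over all genes 1649 were higher and 1410 lower. Library-size scaling gave 1096 higher, offsets 369 higher and 300 lower (273 and 220 with the block), and the coding transcript 338 each way. Without 1 library 990 to 1397 were higher and 740 to 1841 lower, fewest without control replicate 2. For the 68 genes, lower calls were 6 with upper-quartile scaling or the block, and calls were 2 higher and 3 lower with either offsets (2 and 2 with the block), and 9 to 12 higher and 5 to 11 lower without 1 library.

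Replicate numbers did not pair the libraries (correlations of 0.00804, 0.00704 and 0.0157). The block called 1283 genes higher and 1106 lower and turned no member.

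Signs of some members turned, among them ULK1 (0.18), ATG12 (-0.20), RB1CC1 (-0.14) and ATG4B (0.14). With library-size scaling PIK3C3 was -0.01, ATG9A -0.01, ATG10 -0.02 and MAP1LC3B -0.01. With offsets ULK1 was -0.01, RB1CC1 0.07, ATG14 0.03, ATG9A -0.13, WIPI2 -0.01, ATG3 0.15, ATG5 0.17, ATG12 0.01, ATG4A 0.05, ATG4B -0.03, ATG4D -0.12, MAP1LC3B -0.01, GABARAPL2 0.04 and NBR1 0.01, and with the block ATG14 and ATG4A were 0.04. With the coding transcript ULK1 was -0.01, RB1CC1 0.09, ATG14 0.04, ATG9A -0.12, ATG3 0.00, ATG5 0.18, ATG12 0.04, ATG4A 0.05, ATG4D -0.12, GABARAPL2 0.00 and NBR1 0.03. Without 1 library the ranges were ATG10 -0.11 to 0.08, ATG14 -0.15 to 0.04, ATG3 -0.05 to 0.00, ATG4A -0.20 to 0.06, ATG9A -0.05 to 0.14, MAP1LC3B -0.01 to 0.07 and PIK3C3 -0.04 to 0.10. Few counts limit GABARAP, ULK2 and MAP1LC3A.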
